A study of Mus musculus with 6 samples.

Results

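The 34 genes described here carry pyruvate into mitochondria, turn it into acetyl-CoA, run the tricarboxylic acid cycle and shuttle reducing equivalents across the inner mitochondrial membrane. They were chosen by symbol, matched to the Ensembl identifiers of a gene expression table of 36079 genes, and each of the 34 matched exactly 1 row. By role, 2 encode the mitochondrial pyruvate carrier, 5 the pyruvate dehydrogenase complex, 5 its kinases and phosphatases, 1 pyruvate carboxylase, 16 the cycle enzymes and 5 the malate-aspartate shuttle. The series text gives the tissue as temporal lobe, while the sample labels say only brain, and the mice had epilepsy induced by kainic acid, a seizure-provoking compound that activates glutamate receptors. Of these mice, 3 ate a ketogenic diet, which is rich in fat and poor in carbohydrate, and 3 ate chow, each for 3 weeks. Mice of both groups had received kainic acid, and animals without it were not analysed here. Strain, sex, age and the kainic acid dose are not stated in the sources used here. Each mouse gave 1 library of poly(A) RNA, and levels are in FPKM, sequenced fragments relative to the length of the gene and the size of the library, so that levels of different genes can be set side by side.

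Pyruvate made by glycolysis in the cytosol crosses the inner mitochondrial membrane through a carrier and is oxidised by the pyruvate dehydrogenase complex, which kinases switch off and phosphatases switch on again. Pyruvate carboxylase, in brain mainly an astrocyte enzyme, turns pyruvate into oxaloacetate instead and so refills the cycle. Ketone bodies yield acetyl-CoA without passing through pyruvate dehydrogenase, and their activation takes its coenzyme A from succinyl-CoA, a cycle intermediate. Neurons use the malate-aspartate shuttle to move the electrons of cytosolic NADH into mitochondria. The comparison of diets asks whether the transcripts of these enzymes differ when fat and ketone bodies replace much of the carbohydrate.

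The libraries held 55910355, 44616457 and 44063309 recovered reads in ketogenic replicates 1, 2 and 3 and 55283358, 51147869 and 39927217 in chow replicates 1, 2 and 3. All 34 genes had a mean of at least 0.5 FPKM and were tested, and the smallest number of recovered reads of any of them in any library was 359, for Pdp2. Chow replicate 1 stood apart from the other 5 libraries in overall expression, at -55.1 on a first principal component that held 46.4% of the variance, against -12.7 to 34.2. All 6 genes of each list of brain cell type and region markers were measured, and none was at 0 in every library. Summed levels of 6 thalamic markers were 16.3 to 55.4 FPKM in ketogenic mice and 330.6, 24.5 and 67.3 FPKM in chow replicates 1, 2 and 3. Summed choroid plexus markers were 3.84, 3.80 and 1100.3 FPKM in ketogenic replicates 1, 2 and 3 and 854.6, 7.76 and 1922.5 FPKM in chow replicates 1, 2 and 3. Markers of brain regions thus differed between mice of the same diet, and in bulk tissue a smaller share of a cell type and less RNA per cell cannot be told apart.

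None of the 34 genes differed between the diets at an adjusted p under 0.05 in limma's test on log2(FPKM + 0.5), where 0% of the 16009 genes tested did. The smallest adjusted p among the 34 was 0.752, and at an unadjusted p under 0.05 there were 2, Pdk2 on the higher and Sucla2 on the lower side, where 5.38% of all genes reached it. By direction the background was 2.06% of genes higher (329) and 3.32% lower (532), and this split was 403 to 410 after quantile normalization and 490 to 379 after centring each library on its median. With limma's voom on recovered reads none passed either, and 1 gene per direction had an unadjusted p under 0.05. Among all genes, voom gave such a p to 3.54% as lower and to 1.81% as higher. After median centring, 1 of the 34 was higher (3.06% of all genes) and 0 lower (2.37%) at that level. The ketogenic value was lower on average for 27 of the 34 genes, or 79.4%, where 56.9% of all genes had a negative log2 change. The median log2 change was -0.11 for the 34 genes and -0.04 for all genes. All 3 ketogenic libraries lay below all 3 chow libraries in 6 genes (Pdhb, Dld, Idh3b, Dlst, Sucla2 and Sdha), or 17.6%, where 7.49% of all genes did so. They lay above in 1 gene, Pdk2, or 2.94%, against 4.9% of all genes. The number of the 34 with a negative log2 change was 22 after median centring, where 46.6% of all genes had one. It was 22 with library quality weights (58.4% of all genes) and 28 after quantile normalization (50.3%). Median centring gave a median log2 change of -0.05 for the 34, against 0.02 for all genes. Without chow replicate 1, 21 of the 34 were lower and the median log2 change was -0.05, against 56.5% of all genes lower and a median of -0.03, with 7 genes separated on the lower side (background 10.3%) and 4 on the higher side (background 8.16%). Without chow replicate 2, 28 were lower and the median was -0.20, against 58% and -0.06 for all genes. Leaving out some library moved the log2 change of 28 of the 34 genes by over 1.5 times or turned its sign, and that of the other 6, Mpc1, Dld, Pdk2, Sucla2, Sdha and Sdhc, by less.

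**Figure D1:**
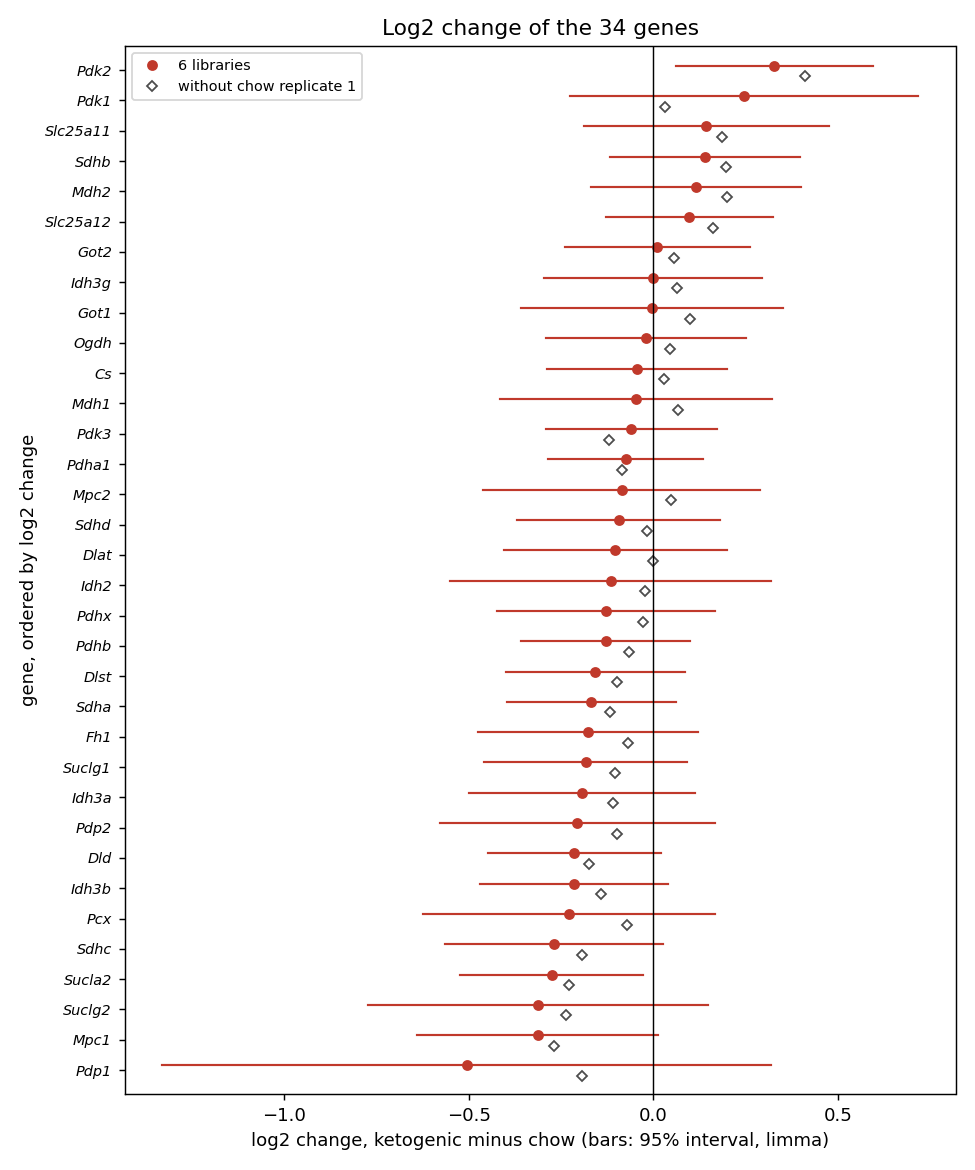
Log2 change of each of the 34 genes, ketogenic minus chow (x axis, log2 scale), ordered by size (y axis). Filled points are the values from all 6 libraries with their 95% intervals, and open diamonds are the values without chow replicate 1, where Pdk2 moves to 0.41 and Pdp1 to -0.19. The intervals of Pdk2 and Sucla2 alone leave out 0, before any adjustment for the number of genes tested.

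Levels differed far more between the 34 genes than between the diets. Cytosolic malate dehydrogenase, Mdh1, had the highest mean over the 6 libraries, 188 FPKM, followed by Got1 at 121 FPKM and Sdha at 101.4 FPKM. The lowest were the phosphatase Pdp2 at 1.62 FPKM, Suclg2 at 3.74 FPKM and the carrier subunit Mpc2 at 5.76 FPKM. Across the 6 libraries, the gap between the highest and the lowest library was 1.66 on the log2 scale for Pdp1, the widest of the 34. It was 0.75 for Pdk1, 0.71 for Suclg2 and 0.68 for Pcx. The narrowest were Pdk3 at 0.19, Slc25a12 at 0.20 and Pdha1 at 0.20.

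**Figure D2:**
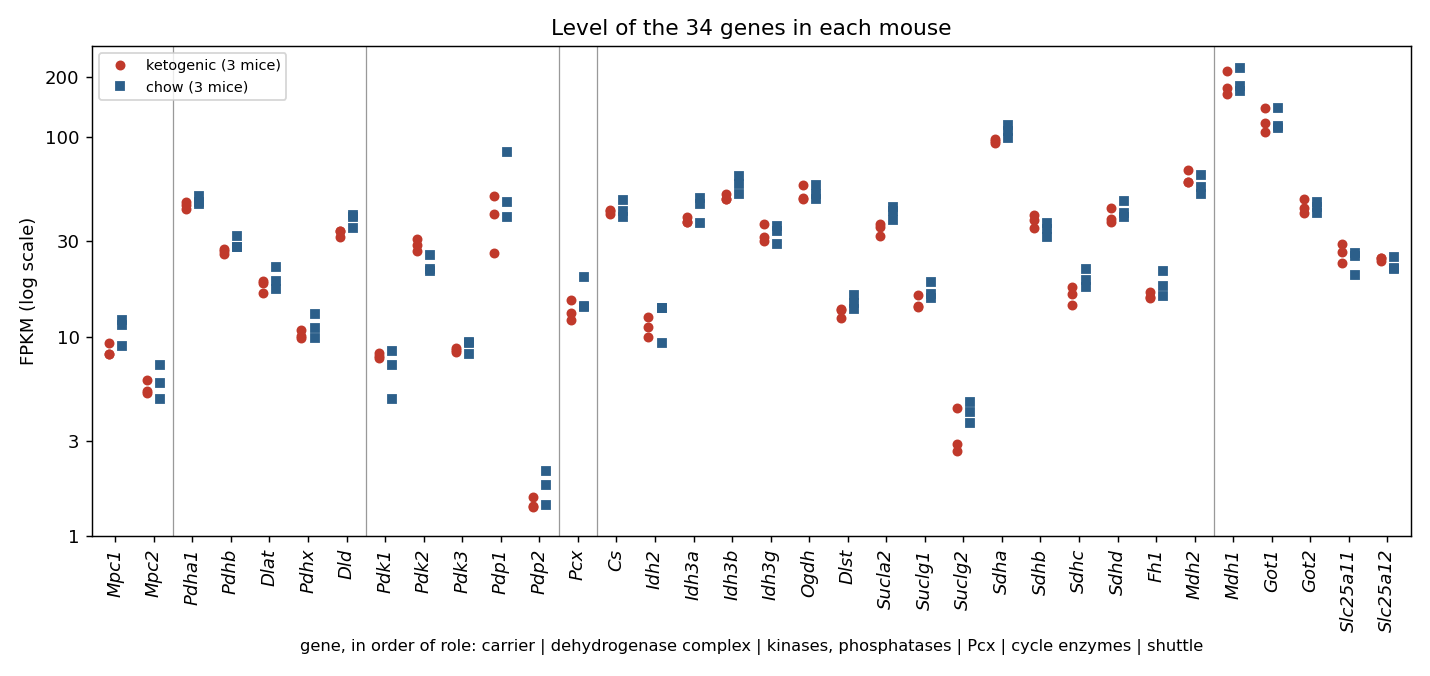
Level of each gene in each mouse in FPKM (y axis, log scale), with genes on the x axis in order of role. Red circles are the 3 ketogenic mice and blue squares the 3 chow mice. Mdh1 lies highest, at 164 FPKM or more in each library, Pdp2 lies lowest, at 2.13 FPKM or less, and for most genes the points of the diets overlap.

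The pyruvate carrier is a pair of Mpc1 and Mpc2, both needed for transport. Mpc1 (ENSMUSG00000023861) had 8.20, 8.19 and 9.29 FPKM in the ketogenic libraries and 11.4, 8.99 and 12.05 FPKM in the chow libraries. Chow replicate 2 lay among the ketogenic values while the other two chow libraries lay above them, and the log2 change was -0.31 ± 0.14 (SE), with a 95% interval from -0.64 to 0.01. Mpc2 had 6.09, 5.33 and 5.202 FPKM in ketogenic mice and 7.20, 4.86 and 5.85 FPKM in chow mice, so that the chow libraries held both its highest and its lowest value. Its log2 change was -0.09 ± 0.16, and without chow replicate 1 it was 0.05. Neither passed the limma test (adjusted p = 0.752 for Mpc1 and 0.880 for Mpc2).

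All 5 genes of the pyruvate dehydrogenase complex had negative log2 changes, from -0.08 for Pdha1 to -0.21 for Dld, and none passed the test. Dld, the dihydrolipoyl dehydrogenase that this complex shares with the 2-oxoglutarate dehydrogenase complex, had 33.8, 31.7 and 33.96 FPKM in ketogenic mice and 40.7, 35.1 and 40.0 FPKM in chow mice. Each ketogenic library lay below each chow library, with a log2 change of -0.21 ± 0.10 (SE) that was -0.17 without chow replicate 1. Pdhb, the beta subunit of the first enzyme, had 25.8, 27.6 and 26.8 FPKM in ketogenic mice and 32.0, 28.0 and 28.0 FPKM in chow mice. Its groups also did not overlap, by a narrow gap, and its log2 change of -0.13 was -0.07 without chow replicate 1. Pdha1, the alpha subunit that the kinases phosphorylate, was among the steadiest of the 34 genes. It had 43.8, 47.2 and 45.7 FPKM in ketogenic mice and 47.3, 46.2 and 50.5 FPKM in chow mice, with overlapping groups and a 95% interval of its log2 change from -0.29 to 0.14. Dlat, the acetyltransferase core, averaged 18.1 ± 1.34 FPKM in ketogenic mice and 19.5 ± 2.63 FPKM in chow mice (SD, n = 3 each). Pdhx, which tethers dihydrolipoyl dehydrogenase to that core, averaged 10.3 ± 0.496 FPKM in ketogenic mice and 11.3 ± 1.58 FPKM in chow mice. Both had overlapping groups. Without chow replicate 1 the log2 change of Dlat was -0.0022 and that of Pdhx -0.03.

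Among the regulators, Pdk2 was the 1 gene with every ketogenic library above every chow library. Pdk2 (ENSMUSG00000038967), the most abundant pyruvate dehydrogenase kinase here, had 26.9, 28.8 and 30.9 FPKM in ketogenic mice and 25.7, 21.7 and 21.4 FPKM in chow mice. Chow replicate 1 lay closest to the ketogenic libraries. The log2 change was 0.33 ± 0.11 (SE), with a 95% interval from 0.06 to 0.60, and the limma test over all genes gave an unadjusted p of 0.0235 and an adjusted p of 0.752. Without chow replicate 1 the log2 change was 0.41 ± 0.10 (limma's unadjusted p = 0.00784, adjusted p = 0.998). The unadjusted p in limma was 0.0333 without ketogenic replicate 1, 0.0547 without ketogenic replicate 2 and 0.0746 without ketogenic replicate 3. It was 0.0718 without chow replicate 2, 0.0833 without chow replicate 3 and 0.0618 with a replicate block. The promoter of Pdk2 is shown because this gene had the largest positive change of the 34. That of Sucla2 is shown as the other gene with an unadjusted p under 0.05. Both are RefSeq sequences of build GRCm38.p6, an earlier build than that of the expression table, running 5′ to 3′ on the gene's strand from 250 bases before to 50 bases after the annotated start. Capitals mark matches to CCAAT, the letters bound by NF-Y, or to GGGCGG, those bound by Sp1, on either strand. The Pdk2 window is the upstream one of 2 annotated starts, at chr11:95041322-95041621 on the minus strand, and the Sucla2 window is at chr14:73552536-73552835 on the plus strand.
Pdk2: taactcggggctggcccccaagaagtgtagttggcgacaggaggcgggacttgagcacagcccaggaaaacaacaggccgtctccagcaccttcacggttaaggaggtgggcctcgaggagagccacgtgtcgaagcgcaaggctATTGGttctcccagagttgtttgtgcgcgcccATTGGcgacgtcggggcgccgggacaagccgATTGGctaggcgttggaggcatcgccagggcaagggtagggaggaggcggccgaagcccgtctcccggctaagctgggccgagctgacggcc
Sucla2: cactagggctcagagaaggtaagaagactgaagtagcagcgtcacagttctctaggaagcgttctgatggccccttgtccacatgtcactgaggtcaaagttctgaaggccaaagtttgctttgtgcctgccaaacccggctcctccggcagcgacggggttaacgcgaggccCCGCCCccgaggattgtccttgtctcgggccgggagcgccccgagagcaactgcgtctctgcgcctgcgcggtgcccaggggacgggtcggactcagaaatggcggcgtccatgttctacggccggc
The Pdk2 window held 3 CCAAT matches, at positions -105, -73 and -42 from the start, all on the opposite strand as ATTGG. The other annotated Pdk2 window held no match to any motif searched. The Sucla2 window held 1 GGGCGG match, at position -77 and also on the opposite strand. Of the 34 genes, 31 had at least 1 window in the table, 40 windows in all, of which some of the same gene overlap. A CCAAT match stood in 65% of these windows and in 37.4% of all 32851 windows of the same length, and a GGGCGG match in 62.5% against 35.7%. The 32851 windows were not matched to the 40 for expression or base content. AAGGTCA, the letters of estrogen-related receptors, matched in 7.5% of the 40 (Got1, Ogdh and Sdhd) against 4.72% of all. The palindrome of NRF1 matched in 0 of the 40 windows and in 0.971% of all, and the direct repeat of AGGTCA bound by PPAR with RXR in 0 of the 40 and in 0.0396% of all. The motifs were searched on both strands, the PPAR and estrogen-related receptor letters overlap, and a match is a description of the letters only.

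The other kinases and the phosphatases gave no separation. Pdk1, a kinase induced by hypoxia, had 7.99, 7.85 and 8.24 FPKM in ketogenic mice and 4.85, 7.23 and 8.51 FPKM in chow mice. Its log2 change of 0.25 rested on the low value of chow replicate 1 and was 0.03 without that library. Pdk3 had 8.56, 8.73 and 8.41 FPKM in ketogenic mice and 8.20, 9.39 and 9.31 FPKM in chow mice, within a narrow range in which the chow libraries held both ends. Pdp1, the main calcium-activated phosphatase of the complex, had 50.5, 41.4 and 26.3 FPKM in ketogenic mice and 83.9, 39.8 and 47.5 FPKM in chow mice. It varied most of the 34 genes, with its highest level in chow replicate 1 and its lowest in ketogenic replicate 3. The log2 change was -0.51 ± 0.34 (SE), with a 95% interval from -1.33 to 0.32, and it was -0.19 without chow replicate 1. Pdp2, the other phosphatase, had 1.40, 1.58 and 1.42 FPKM in ketogenic mice and 2.13, 1.43 and 1.79 FPKM in chow mice, with overlapping groups. None of these 4 genes passed the limma test (adjusted p from 0.752 to 0.863).

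Pcx, pyruvate carboxylase, had 13.1, 15.3 and 12.1 FPKM in ketogenic mice and 19.8, 14.1 and 14.2 FPKM in chow mice. Chow replicate 1 alone lay above the ketogenic range, and the log2 change of -0.23 ± 0.16 (SE) became -0.07 without it. Summed levels of 6 astrocyte markers were also highest in chow replicate 1, at 443.1 FPKM. They were 306.1 to 380.3 FPKM in ketogenic mice and 308.6 and 334.8 FPKM in chow replicates 2 and 3. Aldoc, also a glycolysis gene, made up 267.3 FPKM of the sum in chow replicate 1 and had 164.5 to 187.0 FPKM in the other libraries. Of the 6 markers, 4 were highest in chow replicate 1. The part of astrocyte RNA in the Pcx values was not tested.

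In the cycle itself, 14 of the 16 enzymes had negative log2 changes (87.5%, against 56.9% of all genes). Their median was -0.16, against -0.04 for all genes. Ketogenic libraries lay wholly below the chow libraries for 4 of the 16 (25%, against 7.49% of all genes). Without chow replicate 1 there were again 4, against a background of 10.3%, and 2 lay wholly above, against 8.16%. The log2 changes of Cs, Idh3g and Ogdh turned to 0.03, 0.06 and 0.04 without that library. None of the 16 passed the test. The clearest was Sucla2 (ENSMUSG00000022110), the ADP-forming beta subunit of succinyl-CoA synthetase, whose promoter is shown above with that of Pdk2. It had 36.6, 32.0 and 35.3 FPKM in ketogenic mice and 44.8, 38.6 and 42.8 FPKM in chow mice. Every ketogenic library lay below every chow library, the log2 change was -0.28 ± 0.10 (SE) with a 95% interval from -0.52 to -0.03, and the adjusted p in the limma test was 0.752. The unadjusted p in limma was 0.0342, and 0.0847 without chow replicate 1, where the log2 change was -0.23 ± 0.11. Suclg2, the GDP-forming partner that stands in the same place of the enzyme, had 2.67, 2.90 and 4.38 FPKM in ketogenic mice and 4.67, 4.17 and 3.67 FPKM in chow mice. Ketogenic replicate 3 lay within the chow range, and its log2 change of -0.31 ± 0.19 was -0.50 without that library and -0.19 without ketogenic replicate 1. Suclg1, the alpha subunit common to both forms, averaged 14.8 ± 1.19 FPKM in ketogenic mice and 16.9 ± 1.75 FPKM in chow mice (SD, n = 3 each), with overlapping groups.

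NAD-dependent isocitrate dehydrogenase is built from Idh3a, Idh3b and Idh3g, and of these 3 Idh3b alone had separate groups. Idh3b had 51.6, 48.8 and 49.2 FPKM in ketogenic mice and 64.0, 51.9 and 58.4 FPKM in chow mice, with no overlap and a log2 change of -0.21 ± 0.11 (SE). The catalytic subunit Idh3a had 39.9, 37.6 and 37.6 FPKM in ketogenic mice and 49.4, 37.1 and 46.1 FPKM in chow mice. Chow replicate 2 was its lowest library, so the groups overlapped. Idh3g averaged 32.8 ± 3.35 FPKM in ketogenic mice and 32.8 ± 3.46 FPKM in chow mice (SD, n = 3 each), with a 95% interval of its log2 change from -0.30 to 0.30. The NADP-dependent mitochondrial enzyme Idh2 had 11.1, 9.95 and 12.6 FPKM in ketogenic mice and 13.9, 9.31 and 13.8 FPKM in chow mice, with overlapping groups. The log2 change of Idh2 was -0.12, and -0.30 without chow replicate 2 and -0.0239 without chow replicate 1. Differences between these subunits were not tested.

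Of the 2-oxoglutarate dehydrogenase complex, Dlst separated the groups and Ogdh did not. Dlst, the succinyltransferase core, had 13.6, 13.7 and 12.4 FPKM in ketogenic mice and 16.1, 13.8 and 14.7 FPKM in chow mice. The gap between the groups was narrow, and the log2 change of -0.16 ± 0.10 (SE) was -0.10 without chow replicate 1. Ogdh, the first enzyme of that complex, averaged 52.1 ± 4.84 FPKM in ketogenic mice and 52.8 ± 4.51 FPKM in chow mice (SD, n = 3 each), with a log2 change of -0.02 that turned to 0.04 without chow replicate 1. Citrate synthase, Cs, where acetyl-CoA enters, averaged 42.2 ± 1.06 FPKM in ketogenic mice and 43.7 ± 4.27 FPKM in chow mice. Its log2 change of -0.05 turned to 0.03 without chow replicate 1.

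Succinate dehydrogenase, which is also respiratory complex II, had subunits on both sides. Sdha, the flavoprotein subunit, had 92.9, 97.9 and 95.3 FPKM in ketogenic mice and 115, 99.4 and 108 FPKM in chow mice. Its groups did not overlap, with a log2 change of -0.17 ± 0.10 (SE). Sdhc, a membrane anchor, had 14.4, 17.8 and 16.3 FPKM in ketogenic mice and 21.8, 17.8 and 19.3 FPKM in chow mice. Ketogenic replicate 2 and chow replicate 2 were nearly equal, and the log2 change was -0.27 ± 0.12. The other anchor, Sdhd, averaged 40.2 ± 3.48 FPKM in ketogenic mice and 42.9 ± 4.22 FPKM in chow mice (SD, n = 3 each). Sdhb, the iron-sulfur subunit, averaged 38.0 ± 2.94 FPKM in ketogenic mice and 34.5 ± 2.84 FPKM in chow mice, and its log2 change of 0.14 ± 0.11 was 0.0793 without chow replicate 3. For the last steps, Fh1, fumarate hydratase, averaged 16.1 ± 0.601 FPKM in ketogenic mice and 18.4 ± 2.69 FPKM in chow mice. Mdh2, mitochondrial malate dehydrogenase, had 59.3, 68.2 and 59.7 FPKM in ketogenic mice and 64.5, 56.4 and 52.1 FPKM in chow mice, with overlapping groups. Its log2 change of 0.12 ± 0.12 was 0.0449 without chow replicate 3 and 0.20 without chow replicate 1. None of these 6 genes passed the limma test (adjusted p from 0.752 to 0.823).

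The 5 genes of the malate-aspartate shuttle had log2 changes from -0.05 to 0.14, all with overlapping groups. Those of Mdh1, Got1 and Got2 lay within 0.05 of 0 and turned sign under some scalings or with a library left out. Mdh1, its cytosolic malate dehydrogenase, had 177, 213 and 164 FPKM in ketogenic mice and 222, 180 and 171 FPKM in chow mice. The aspartate aminotransferase of the cytosol, Got1, had 118, 140 and 106 FPKM in ketogenic mice and 139, 114 and 110 FPKM in chow mice. The mitochondrial form Got2 had 44.1, 49.0 and 41.5 FPKM in ketogenic mice and 47.2, 41.6 and 44.5 FPKM in chow mice. In all 3, ketogenic replicate 2 and chow replicate 1 held the 2 highest values. Slc25a11, the malate carrier, had 23.5, 29.2 and 26.5 FPKM in ketogenic mice and 25.3, 26.2 and 20.3 FPKM in chow mice. Slc25a12, the aspartate-glutamate carrier of neurons, had 23.9, 24.8 and 24.8 FPKM in ketogenic mice and 25.0, 21.7 and 22.0 FPKM in chow mice. Its ketogenic values lay close together, below chow replicate 1 and above the other two. The 95% intervals of the 5 log2 changes lay between -0.42 and 0.47, and the adjusted p in the limma test was 0.790 or more.

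Ratios between paired genes in the same library do not depend on how that library was scaled, and 10 such ratios were compared by an exact two-sided permutation test. With 3 mice against 3, the smallest p this test can give is 0.1, and after adjustment over the 10 ratios the smallest was 0.5. Groups did not overlap in 2 of the 10. Pdk3 stood at 0.318, 0.303 and 0.272 times Pdk2 in the ketogenic libraries and at 0.319, 0.433 and 0.435 times in the chow libraries. Chow replicate 1 lay just above the highest ketogenic library, and the mean log2 ratio was lower by 0.397 on the ketogenic diet (exact permutation p = 0.1). Mdh1 stood at 2.99, 3.13 and 2.75 times Mdh2 in ketogenic mice and at 3.44, 3.20 and 3.28 times in chow mice, so the cytosolic form was relatively lower in each ketogenic library (exact permutation p = 0.1). The ADP-forming Sucla2 exceeded Suclg2 by 8.06 to 13.7 times in ketogenic mice and by 9.24 to 11.7 times in chow mice, and Pdp1 exceeded Pdp2 by 18.5 to 36.1 times in ketogenic mice and by 26.5 to 39.4 times in chow mice. Pcx stood at 0.266 to 0.323 times Pdha1 in ketogenic mice and at 0.280 to 0.418 times in chow mice. Pdk1 stood at 0.267 to 0.297 times Pdk2 in ketogenic mice and at 0.189 to 0.398 times in chow mice. Mpc1 to Mpc2, Got1 to Got2, Idh2 to Idh3a and Slc25a12 to Slc25a11 also overlapped between the diets (exact permutation p from 0.2 to 0.9).

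**Figure D3:**
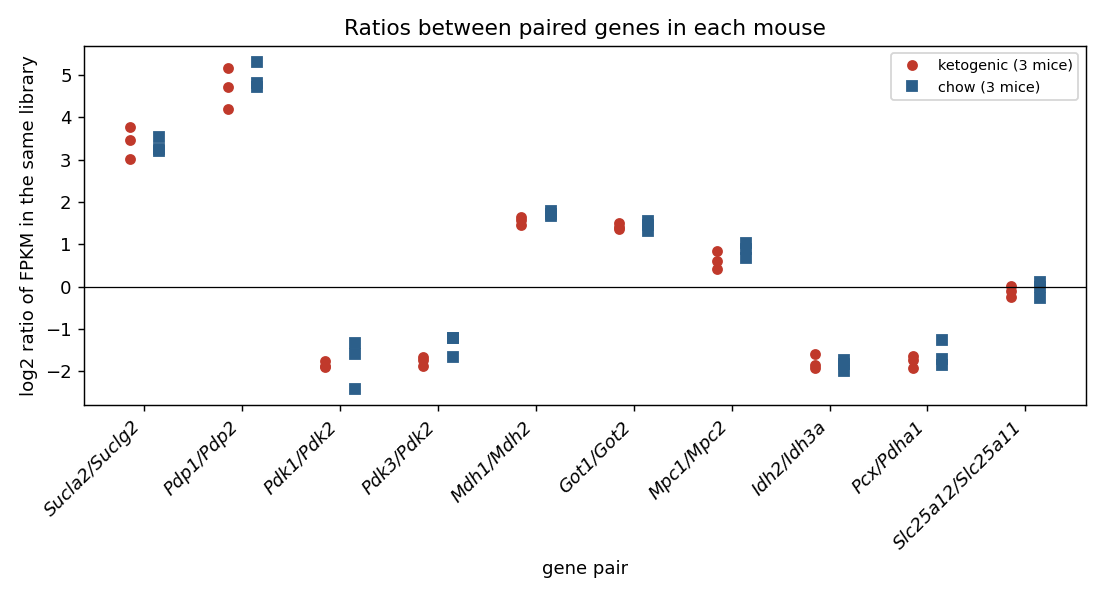
Log2 ratio of the FPKM of paired genes in the same library (y axis) for 10 gene pairs (x axis). Red circles are the 3 ketogenic mice and blue squares the 3 chow mice. The groups separate for Pdk3/Pdk2 and Mdh1/Mdh2 and overlap for the other 8 pairs.

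Chow replicate 1 held the highest level of 23 of the 34 genes, or 67.6%, and of 29.6% of all genes tested. By role it was the highest library for 4 of the 5 dehydrogenase complex genes, 13 of the 16 cycle enzymes and 2 of the 5 shuttle genes. Centring each library on its median left 19 of the 34 highest there (24.5% of all genes), and quantile normalization 24 (26.8%). Summed over the 34 genes, levels were 1194, 1282 and 1155 FPKM in ketogenic replicates 1, 2 and 3 and 1439, 1186 and 1225 FPKM in chow replicates 1, 2 and 3. Chow replicate 1 thus lay above all other libraries, while chow replicates 2 and 3 lay within the ketogenic range. For the cycle enzymes, the median deviation from each gene's mean was -0.062, -0.036 and -0.086 on the log2 scale in ketogenic replicates 1, 2 and 3 and 0.215, -0.037 and 0.053 in chow replicates 1, 2 and 3. Chow replicate 1 also had the highest levels of all 6 thalamic and all 6 oligodendrocyte markers and of 5 of 6 endothelial markers, and of none of the 6 excitatory neuron markers. Summed oligodendrocyte markers were 782.6, 568.7 and 1282 FPKM in ketogenic mice and 1987, 791.9 and 926.1 FPKM in chow mice. Summed excitatory neuron markers were 836.4, 763.1 and 490.3 FPKM in ketogenic mice and 283.2, 551.0 and 664.9 FPKM in chow mice. The part of these cell types and regions in the levels of the 34 genes was not tested.

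**Figure D4:**
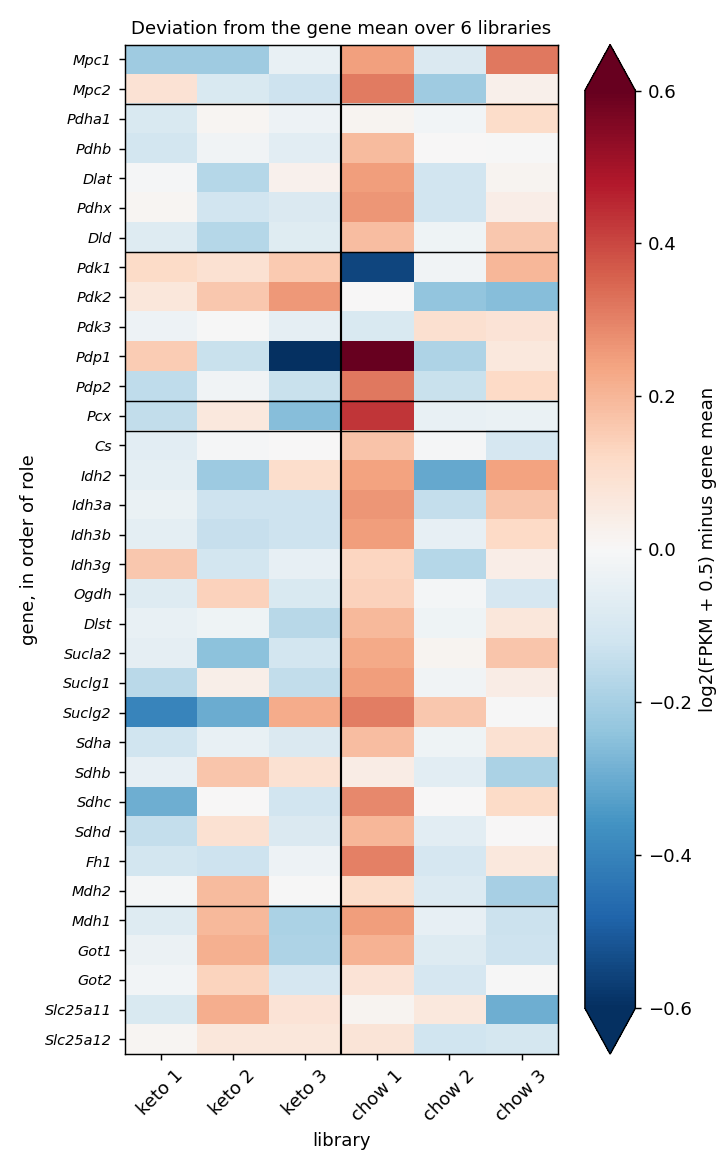
Deviation of each gene (rows, in order of role) from its mean over the 6 libraries, on the log2(FPKM + 0.5) scale, in each library (columns, ketogenic left and chow right). Red is above and blue below the gene mean, and the colours end at 0.6 either way, which Pdp1 passes. The column of chow replicate 1 is red for most genes, blue for Pdk1, and Pdk2 is the 1 row with all ketogenic libraries above all chow libraries.

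**Figure D5:**
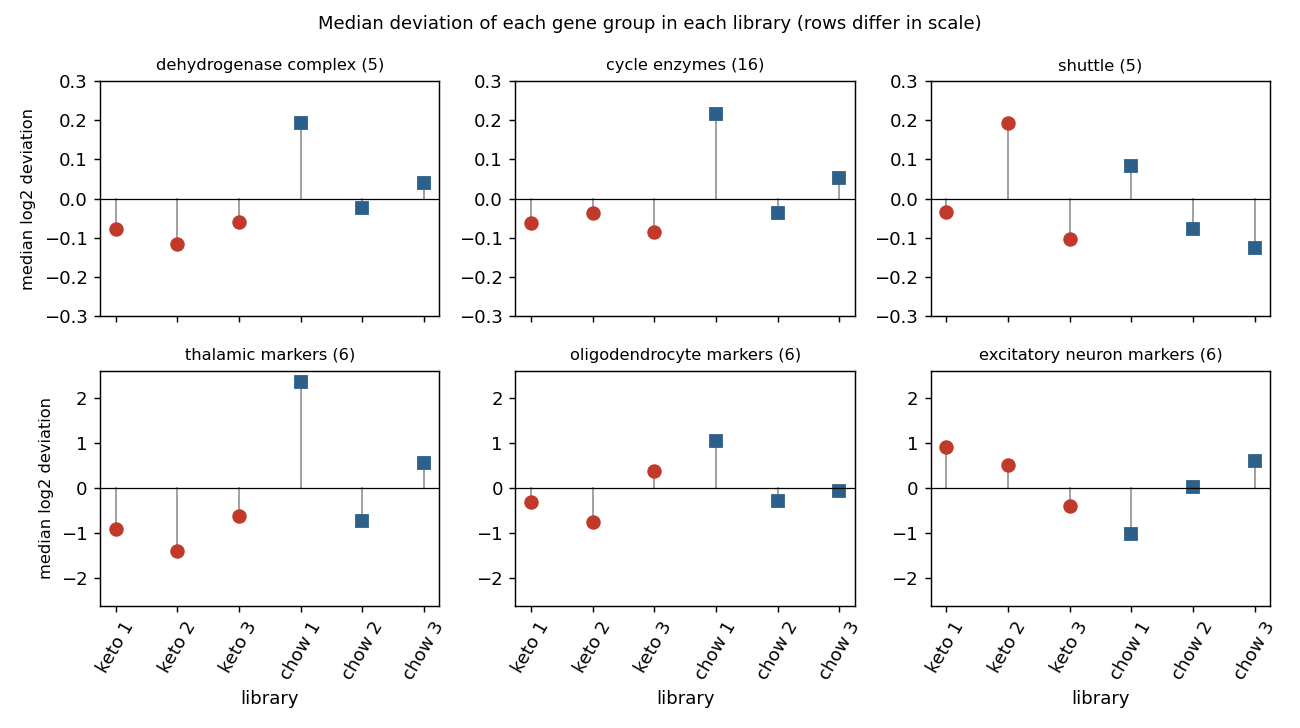
Median deviation from the gene means, on the log2 scale (y axes, scaled differently in the upper and lower rows), of 3 role groups and 3 marker lists in each library (x axes). Red circles are ketogenic and blue squares chow libraries. Chow replicate 1 is the highest library for the dehydrogenase complex and the cycle enzymes, and for thalamic and oligodendrocyte markers, and the lowest for excitatory neuron markers.

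A list of 32 further genes of the cycle and the pyruvate node was read beside the 34. Of these, 30 were tested, and none passed the limma test. Negative log2 changes stood in 21 (70%, against 56.9% of all genes) and positive ones in 9. The median was -0.11, against -0.04 for all genes. The groups were separate for 3 of the 30 on the lower side (10%, against 7.49% of all genes) and for 1 on the higher side (3.33%, against 4.9%), shares near those of all genes. The higher one was Slc25a22, a mitochondrial glutamate carrier, with 25.5, 31.4 and 31.7 FPKM in ketogenic mice and 22.1, 25.2 and 22.3 FPKM in chow mice (log2 change 0.34 ± 0.12 SE, adjusted p = 0.752 in limma). The lower ones were Oxct1, Pdpr and Sdhaf3. Oxct1, which activates acetoacetate with succinyl-CoA, had 70.4, 74.2 and 65.5 FPKM in ketogenic mice and 79.7, 83.9 and 81.0 FPKM in chow mice. Pdpr, the regulatory subunit of the dehydrogenase phosphatase, had 5.84, 5.47 and 6.18 FPKM in ketogenic mice and 6.92, 6.40 and 7.62 FPKM in chow mice. For Sdhaf3, an assembly factor of succinate dehydrogenase, the log2 change was -0.23. Gpt, an alanine aminotransferase, and Ldhb, the lactate dehydrogenase subunit that favours pyruvate, had log2 changes of -0.35 and -0.28 with overlapping groups. Pdk4, the kinase that fasting and fatty acids induce in other tissues, had 4.36, 3.24 and 5.50 FPKM in ketogenic mice and 4.13, 3.60 and 3.38 FPKM in chow mice. Its groups overlapped, and the log2 change of 0.19 had a 95% interval from -0.27 to 0.65. The log2 changes of Idh1 (the cytosolic isocitrate dehydrogenase) and Slc25a13 (the second aspartate-glutamate carrier) were -0.13 and -0.31, both with overlapping groups.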

How the data were processed

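Bulk poly(A) RNA of 6 mice was sequenced, 3 on a ketogenic diet and 3 on chow, 1 library per mouse. HISAT2, featureCounts, Subread and build GRCm39 are named in the submitters' processing notes. Versions, annotation and strand setting were not found in the sources used here, so overlapping genes, antisense genes and near-identical copies can share reads. The authors deposited gene FPKM values, and symbols came from a table of gene names by Ensembl identifier (35175 of 36079 matched). Whole reads were recovered from the FPKM steps in all 33862 genes with any signal (100%; tolerance 0.001), with each gene's reads known only up to 1 shared multiplier. No pair of libraries agreed within counting noise (chi-square per gene of 38.8 or more).

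Testing covered the 16009 genes whose mean reached 0.5 FPKM. The model, limma 3.58.1 in R 4.3.3 with eBayes and a trend, was fitted to log2(FPKM + 0.5), which understates changes of low genes, with no term besides diet. P-values are two-sided and Benjamini-Hochberg adjusted across the tested genes. The fit was tested on simulated data. The 34 genes and the lists were chosen with earlier results of these data known, so no list was tested. All 34 are named. Values per library are given for genes with non-overlapping groups, the pair with the smallest unadjusted p in each role and the genes of the ratios. Of the further list, the 6 with the smallest unadjusted p and Pdk4, Idh1 and Slc25a13 are named, and 1 further gene of that rule is not reported here. Ldha and Nnt of that list are named in the closing section, chosen after their values were seen. The alternatives were pseudocounts, filters, scalings, library weights, a replicate block, voom and leaving out each library. The labels' protocols name an Illumina and an MGI sequencer without saying which library ran on which, so this could not be examined.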

Additional observations from a re-analysis of the deposited data

How the results depend on the processing

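None of the 34 genes passed an adjusted p of 0.05 under any of the 16 alternatives, and 514 of their log2 changes kept their sign while 29 turned. The number of the 34 genes at an unadjusted p under 0.05 on the lower side, 1, was 0 with TPM, 0 with median centring and 4 with library quality weights, where the shares of all genes were 2.89%, 2.37% and 7.83% in place of 3.32%. It ran from 0 to 5 when each library was left out, with 5 without chow replicate 2 (7.35% of all genes) and 0 without chow replicate 1 (1.95%) or 3 (1.94%). On the higher side, 1, it was 0 with a replicate block (2.24% of all genes). When a library was left out, it ran from 0 to 1. It was 0 without ketogenic replicate 2 (1.36% of all genes), ketogenic replicate 3 (1.94%), chow replicate 2 (4.18%) or chow replicate 3 (1.81%). It was 1 without ketogenic replicate 1 (1.46%) or chow replicate 1 (1.44%). Same-numbered libraries deviated from their group means with correlations of -0.037, 0.480 and -0.215 over all tested genes. Between libraries of unlike number the correlations ran from -0.311 to 0.454. Such correlations cannot show whether the numbers pair the mice, and the sources used here do not say. The block changed no call at an adjusted p under 0.05. Leaving out each library for the count of non-overlapping groups was chosen after seeing the data. That count ran from 6 to 15 on the lower and from 1 to 4 on the higher side. It was 15 lower without chow replicate 2 (44.1%, background 20.8%). The shares of all genes ran from 10.3% to 20.8% lower and from 8.16% to 11.9% higher, against 7.49% and 4.9% with all 6 libraries.

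The cause of the turned signs was not tested. With median centring the log2 changes were 0.0093 for Cs, 0.0543 for Idh3g, 0.0346 for Ogdh, 0.0073 for Mdh1 and 0.0512 for Got1. With library quality weights they were 0.0146 for Cs, 0.0413 for Idh3g, 0.0248 for Ogdh, 0.035 for Mdh1 and 0.0701 for Got1. With TPM they were 0.0147 for Idh3g and 0.0116 for Got1, and with quantile normalization -0.0126 for Got2. When a library was left out, the ranges were -0.21 to 0.0473 for Mpc2, -0.11 to 0.0296 for Cs, -0.0847 to 0.0639 for Idh3g, -0.0945 to 0.0449 for Ogdh, -0.16 to 0.0665 for Mdh1, -0.11 to 0.0997 for Got1 and -0.0536 to 0.0648 for Got2. The log2 ratio differences ran from -0.10 to 0.28 for Sucla2 to Suclg2, -0.48 to 0.00 for Pdp1 to Pdp2, -0.39 to 0.15 for Pdk1 to Pdk2, -0.0804 to 0.0445 for Got1 to Got2, -0.0238 to 0.14 for Idh2 to Idh3a, -0.28 to 0.0114 for Pcx to Pdha1 and -0.15 to 0.0394 for Slc25a12 to Slc25a11.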

Other observations

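Glycolysis, which supplies the pyruvate, was read beside the 34 genes as 18 rows for 17 symbols. Of these rows, 10 (55.6%) had positive and 8 negative log2 changes, with a median of 0.05. Among all genes 43.1% had positive log2 changes, and the median was -0.04. All 3 ketogenic libraries lay above all 3 chow libraries in Hk1 and in both rows of Aldoa, genes chosen here after their values were seen. These were 3 of the 18 rows (16.7%, against 4.9% of all genes), and 0 of the 18 lay wholly below (against 7.49%). Hk1, the main hexokinase of brain, had 47.9, 52.1 and 44.3 FPKM in ketogenic mice and 36.2, 43.7 and 43.4 FPKM in chow mice (adjusted p = 0.752 in limma). The abundant Aldoa row had 343.3, 387.0 and 317.8 FPKM in ketogenic mice and 299.5, 315.6 and 295.0 FPKM in chow mice, and the second row, at 3.01 FPKM or less, carries the same symbol, so reads between them are uncertain. Lactate dehydrogenase A, Ldha, which favours lactate, had 64.2, 83.4 and 67.1 FPKM in ketogenic mice and 33.5, 77.3 and 65.9 FPKM in chow mice, with its lowest level in chow replicate 1, the library in which Ldhb was highest at 383 FPKM.

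Gapdh was listed at 3.51, 34.05 and 2.84 FPKM in ketogenic replicates 1, 2 and 3 and at 18.0, 18.2 and 3.04 FPKM in chow replicates 1, 2 and 3, far below its neighbours in glycolysis such as Pgk1, which had 123.4 FPKM or more in each library. Gapdh has many near-identical copies in the genome, so its level is uncertain, and the cause of these values was not tested. Nnt, the mitochondrial transhydrogenase, had 0.0353, 0.0759 and 0.0160 FPKM in ketogenic mice and 0.0510, 0.0248 and 0.0318 FPKM in chow mice, with 24 recovered reads at most, and was not tested.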
